A study of Mus musculus with 6 samples.

Results

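The sites described here are stretches of DNA that were called open in every fed and in no fasted liver library. Hotspots, local excesses of DNase I cutting, were merged across 6 libraries on chromosomes 1 to 19 wherever they overlapped by at least 1 bp, which gave 72722 union regions. A region belonged to the fed-only set when all 3 fed libraries and none of the 3 fasted libraries had a hotspot in it, so the sites were chosen by their calls in both groups. There were 1153 such regions, 1.59% of the total, covering 0.887 Mb. For comparison, 852 regions were called in all 3 fasted and no fed libraries (the fasted-only set), and 36088 were called in all 6 (shared regions).

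The libraries came from livers of C57BL/6 mice, an inbred strain, that had either been fed ad libitum (3 libraries) or fasted for 24 h (3 libraries), and the comparison asked which accessible sites of the liver differ after fasting. All mice were killed at the start of the light phase. The labels give no age, sex, genotype change or other agent, and do not say whether a replicate is a single animal, so the spread and the p-values below measure only how these libraries vary, part of which may be technical. A liver is a mixture of cell types: a site open in fewer cells and a site less open in each cell cannot be told apart here. The identity of the tissue was not checked against gene markers, because no gene annotation of the files' build (mm9) was used.

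DNase I cuts DNA that is not wrapped in nucleosomes or otherwise shielded, so its hypersensitive sites mark promoters, enhancers and other regulatory elements that transcription factors hold open. In liver, feeding and fasting change the activity of many such factors: insulin-dependent and lipogenic programmes run in the fed state, and glucagon, glucocorticoid and fatty acid signals act in the fasted state. Sites open in one state only are often enhancers, whereas promoters tend to stay open. This is background and was not measured here.

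The 6 lists held 48164 to 61490 hotspots on chromosomes 1 to 19. Within a library every maximum tag density was a multiple of 1 smallest step (100% of values within 0.05 step), so that relative depth can be read from the step if it stands for 1 tag, which the sources used here do not state. On that reading fasted replicate 2 was the deepest library, at 1.90 times fed replicate 2, which was the shallowest, and fed replicate 3 stood at 1.64 times. Also on that reading, and if a maximum density varies like a tag count, replicates of a group differed by more than counting noise. A list holds only called hotspots, so a site missing from the fasted lists has an unknown density there, not a density of 0.

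Fed-only sites were mostly weaker than the regions called in every library. The maximum tag density, in the authors' units, had a median of 11.8 in fed replicate 1, 9.74 in fed replicate 2 and 10.8 in fed replicate 3. Read as tags, these medians correspond to 32, 26 and 47 tags. The fed libraries thus gave similar levels, whereas shared regions had medians of 25.4, 24.0 and 23.8 in the same libraries. Regions called in all fed and in only 1 or 2 fasted libraries had lower fed means than the fed-only sites, with medians of 8.997 and 8.56 against 11.1.

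Averaged over the 3 fed libraries, the density of a fed-only site had a median of 11.1, an interquartile range of 7.61 to 15.9 and extremes of 3.27 and 82.5. The fasted-only set, measured in the fasted libraries, had a median of 8.87 (6.52 to 12.7). The authors' z-score of the hotspots told the same order, with member medians of 16.4, 13.4 and 19.8 in fed replicates 1 to 3 against 37.7, 35.9 and 46.7 for shared regions. These densities come from the hotspots that the choice of sites rests on and are given as a description without a test.

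**Figure D1:**
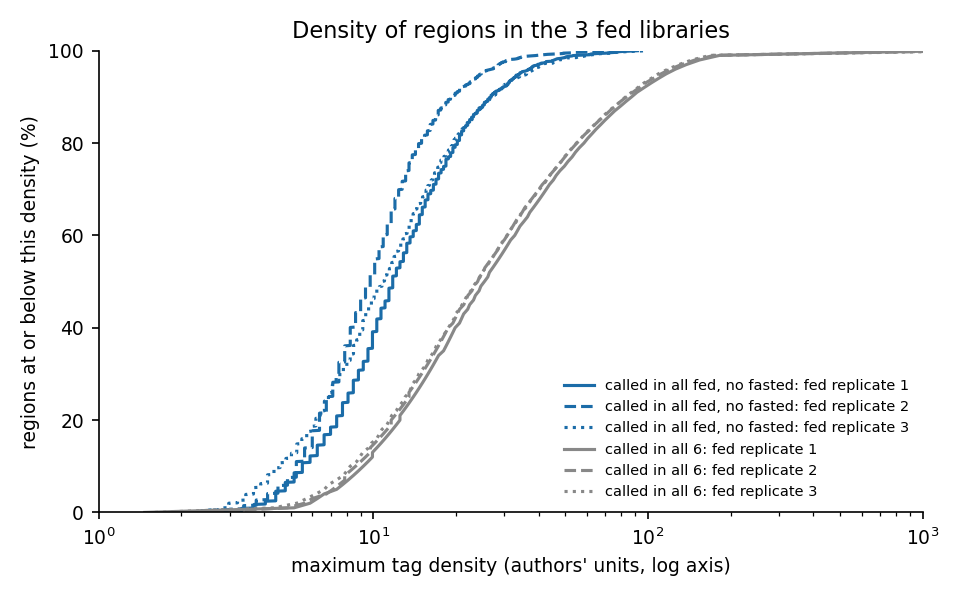
Cumulative share of regions (percent, vertical axis) at or below a maximum tag density (authors' units, log axis) in each fed library, for the 1153 fed-only sites (blue) and the 36088 shared regions (grey). In all 3 libraries the fed-only curves lie at lower densities, with medians of 9.74 to 11.8 against 23.8 to 25.4.

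The fed densities can be set beside the fasted lists, as a description of sites chosen by their fed calls. In 994 of the 1153 sites (86.2%) the lowest of the 3 fed densities was above 4.54, the highest 5th percentile of density of any fasted list. In 130 sites (11.3%) it was above 16.95, the highest median of any fasted list. Only 14 sites (1.21%) stayed under 4.54 in every fed library. The caller's threshold at each site is not known, so these counts do not say how near to it a site was in a fasted library.

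The share of fed-called regions without a fasted call fell steeply with density. Of the 40754 regions called in all 3 fed libraries, 36088 (88.6%) were also called in all 3 fasted ones, 2123 in 2, 1390 in 1 and 1153 (2.83%) in none. Among regions with a mean fed density under 5, 13% had no fasted call, against 6.22% at 5 to 10, 4.03% at 10 to 20 and 1.5% at 20 to 40. At 40 to 80 only 22 of 7187 regions (0.306%) had none, and above 80 only 2 of 3992 (0.0501%).

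The same count made the other way round gave lower shares in each density class: 6.61%, 4.86%, 2.75%, 0.595% and 0.0587% of the regions called in all fasted libraries had no fed call, and 0 of 4280 above a density of 80. In all, 2.08% of the regions called in every fasted library had no fed call. Whether this difference between the sets exceeds the spread between samples was not tested.

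**Figure D2:**
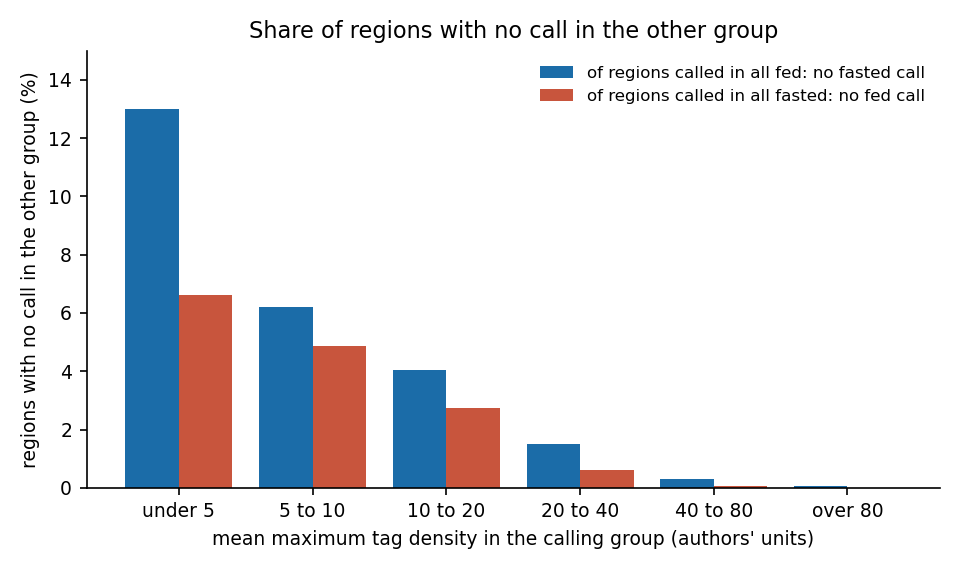
Percent of regions with no call in the other group (vertical axis), by mean maximum tag density in the calling group (horizontal axis, authors' units). Blue bars are regions called in all fed libraries with no fasted call, red bars regions called in all fasted libraries with no fed call. The blue bars go from 13% in the weakest class to 0.0501% in the strongest.

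Depth moved with which regions met the rule; its part in the set was not tested. Of the 1390 regions called in all fed and exactly 1 fasted library, 1063 (76.5%) owed that call to fasted replicate 2, the deepest fasted library, against 168 for fasted replicate 1 and 159 for fasted replicate 3. The density of fasted replicate 2 at its 1063 regions had a median of 5.13. Of the 1997 regions called in 2 fed and no fasted libraries, 1184 (59.3%) lacked a call in fed replicate 2, the shallowest, 725 in fed replicate 1 and 88 in fed replicate 3. Without fed replicate 1, fed replicate 2 or fasted replicate 2 the rule found 1882, 2340 and 2233 sites in place of 1153. Leaving out fed replicate 3 gave 1287, and leaving out fasted replicates 1 and 3 gave 1321 and 1312. Each of these counts asks for agreement of 5 lists, not 6. With every list shortened to the same number of hotspots it found 1204.

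The regions on either side of the rule overlapped in density with the sites inside it. The weakest site inside was on chromosome 2 (33601945 to 33602445), with densities of 4.05, 1.87 and 3.89 in fed replicates 1 to 3. The other weak ones, on chromosome 18 (20097775 to 20098235) and chromosome 7 (145182955 to 145183358), had fed means of 3.41 and 3.43.

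Just outside lay regions with much higher fed densities. On chromosome 8 (129174618 to 129175431) the fed libraries gave 112.9, 77.2 and 96.8, and fasted replicate 2 alone called it, at 29.4. Also on chromosome 8 (108292519 to 108293546) the fed densities were 96.0, 72.7 and 94.5, with a single fasted call of 9.36 in replicate 1. The third was on chromosome 16 (34319879 to 34321223), with fed densities of 68.8, 54.7 and 131.4 and a call of 3.12 in fasted replicate 1. Each of these would have ranked above every fed-only site by mean fed density, and each is left out by a single weaker fasted hotspot.

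On the fed side, the strongest region called in 2 fed and no fasted libraries was on chromosome 10 (94606955 to 94608026), at 31.3 in fed replicate 1 and 47.8 in fed replicate 3. Fed replicate 2 had no hotspot there. The next lay on chromosome 11 (3040716 to 3041464, 44.1 and 32.0) and chromosome 7 (20332764 to 20333486, 22.8 and 43.7), again without a call in fed replicate 2.

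Fed-only sites were narrower than shared regions. The median width was 705 bp (interquartile range 623 to 835 bp) against 1054 bp for shared regions and 666 bp for the fasted-only set. Regions called in all fed and 1 or 2 fasted libraries were about as narrow, with medians of 695 and 713 bp. There were 1040 sites (90.2%) under 1 kb and 8 over 2 kb. In 1134 of the 1153 sites each fed library contributed exactly 1 hotspot, and the other 19 held up to 7 hotspots summed over the libraries. Width rose with density, from a median of 625 bp in the 289 weakest sites to 846.5 bp in the 288 strongest (r = 0.54 between log width and log density over 1153 sites, a description across sites measured in the same libraries). Shared regions with a mean fed density between 7.61 and 15.9, the interquartile range of the fed-only sites, had a median width of 854 bp. A merged shared region joins hotspots of 6 libraries and a fed-only site those of 3, so the widths are not built alike.

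Agreement between the fed libraries was lower at these sites than at shared regions. The coefficient of variation over the 3 fed libraries had a median of 22.6% at fed-only sites and 14.6% at shared regions. The highest fed density was at least 2 times the lowest at 223 sites (19.3%). Correlations of log2 density between fed libraries were 0.784 (replicates 1 and 2), 0.884 (1 and 3) and 0.778 (2 and 3) over the 1153 sites, and 0.952 to 0.955 over shared regions. These are correlations across sites, which are not independent replicates, and the members are weaker than shared regions. Fed replicate 1 gave the highest density at 550 sites, fed replicate 3 at 358 and fed replicate 2 at 245.

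The density of the strongest sites in fasted livers is unknown. They were picked by their fed density, so standing far above the fasted lists' medians is largely set by the choice. The highest was on chromosome 9 (74638880 to 74639859), with 91.6, 64.4 and 91.5 in fed replicates 1 to 3, a mean of 82.5 ± 15.7 (SD, n = 3). Next came a site on chromosome 6 (121120793 to 121121850) with 86.4, 75.7 and 79.2. On chromosome 7 (4766593 to 4767792) the densities were 79.8, 49.1 and 98.4. The site on chromosome 6 varied little between libraries, whereas that on chromosome 7 differed by a factor of 2 between fed replicates 2 and 3.

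A pair of sites close together on chromosome 12 followed, at 76.5, 54.3 and 86.1 (105230197 to 105231744) and at 76.5, 62.95 and 68.2 (105234386 to 105235315). On chromosome 1 (40293321 to 40294304) the fed libraries gave 72.1, 43.1 and 75.3. The site on chromosome 2 (73808821 to 73810063) had 65.1, 73.1 and 50.1. This was the only one of the 12 strongest in which fed replicate 2 was the highest library, and fed replicate 2 was the lowest in 10 of the 12.

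The remaining 5 of the 12 had means of 54.9 to 62.0. They lay on chromosome 7 (138592304 to 138593353, with 61.4, 49.1 and 75.5), chromosome 5 (66486288 to 66487285), chromosome 6 (99251317 to 99253419), chromosome 12 (105318743 to 105327877) and chromosome 7 (26195730 to 26196594). Near several of the 12 the fasted lists had strong hotspots at short range: the closest fasted hotspot was 795 bp from the chromosome 9 site and 1.56 kb from the first chromosome 7 site. The chromosome 2 site, in contrast, had its nearest fasted hotspot 28.99 kb away.

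**Figure D3:**
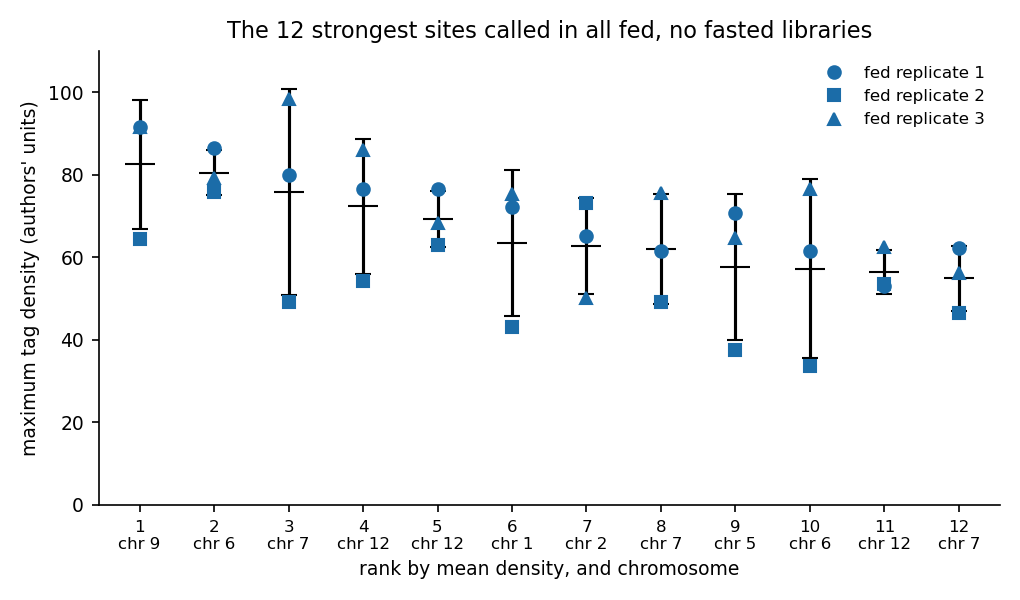
Maximum tag density (authors' units, vertical axis from 0) of the 12 strongest fed-only sites in each fed library, ordered by mean. Symbols are libraries, the horizontal dash is the mean and the bar its SD (n = 3). Means go from 82.5 to 54.9, and fed replicate 2 (squares) is the lowest library at 10 of the 12.

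The widest site was also among the strongest. On chromosome 12 (105318743 to 105327877) each fed library had 1 continuous hotspot of 7.87, 7.66 and 9.13 kb, with maximum densities of 53.0, 53.6 and 62.5. In fed replicates 1 and 2 it was the only hotspot over 7.5 kb in the whole list. No fasted library called any part of it. All 3 fasted libraries instead had a small hotspot of 368 to 421 bp starting 441 to 495 bp past its end, at densities of 6.81, 5.53 and 7.26, which no fed library called.

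In the other wide sites some libraries had more than 1 hotspot. A site of 3581 bp on chromosome 8 (116676519 to 116680099) had densities of 23.2, 27.4 and 28.4. One of 3053 bp on chromosome 19 (5821788 to 5824840) had 53.3, 19.1 and 54.9, so fed replicate 2 stood well below the others. A second one on chromosome 8 (107617780 to 107620801, 3022 bp) gave nearly equal values of 21.7, 22.5 and 20.4.

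Most fed-only sites lay near other open chromatin. The nearest shared region was a median of 6.94 kb away (interquartile range 2.14 to 25.1 kb), against 6.08 kb from a shared region to the next shared one and 5.35 kb for the fasted-only set. For shared regions with a mean fed density between 7.61 and 15.9 the median was 7.58 kb. The region nearest to a fed-only site lay within 1 kb for 175 sites (15.2%), within 5 kb for 497 (43.1%), within 20 kb for 824 (71.5%) and within 100 kb for 1076 (93.3%). Of all shared regions 18.4% had another under 1 kb away and 75.7% within 20 kb. Counting any hotspot of any fasted library, the median distance was 4.40 kb and 30 sites (2.60%) had one within 150 bp.

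Stronger sites were closer to shared regions. With the sites ranked by density and divided into 4 equal parts, the median distance was 20.5 kb in the weakest, then 7.39 and 5.55 kb, and 4.23 kb in the strongest. The most isolated were weak sites: on chromosome 13 (27008334 to 27008787, mean density 3.86) the nearest shared region was 1079 kb away, on chromosome 1 (112695760 to 112696228, 4.63) 1064 kb and on chromosome 8 (6006251 to 6006863, 5.30) 673 kb. A fed-only site was usually weaker than its nearest shared region, with a median ratio of fed densities of 0.428, and exceeded it in 195 of 1153 cases (16.9%).

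Shared regions next to fed-only sites were lower in fasted livers more often than shared regions at large. The 1153 sites had 1085 distinct nearest shared regions. In the fit over all 36088 shared regions (limma, Benjamini-Hochberg adjusted p under 0.05, fasted minus fed), 214 of these neighbours fell (19.7%) and 37 rose (3.41%). Over all shared regions 7.73% fell and 8.25% rose, together 16.0%. The median log2 fold change was -0.15 for the neighbours (interquartile range -0.51 to 0.12) and 0.042 for all shared regions (-0.22 to 0.25).

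On leaving out each library the share of neighbours that fell was lower, at 13.1%, 14.7% and 15.1% without fed replicates 1, 2 and 3. Without fasted replicates 1, 2 and 3 it was 16.6%, 16.4% and 16.8%. Each fit had its own sites and so its own neighbours, numbering 1754, 2121 and 1207 without fed replicates 1, 2 and 3. Without fasted replicates 1, 2 and 3 there were 1233, 2049 and 1236, against 1085 with all libraries. The number that fell was 182 to 337, against 214. Of all shared regions 5.41%, 6.34%, 5.76%, 6.15%, 7.54% and 6.59% fell in the same fits, and the share of neighbours that rose was 1.95% to 4.73%.

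The neighbours' densities were not used to choose the sites. They do come from the same libraries and the same contrast, so these counts are a description of the surroundings and no test of the set was made. Without fasted replicate 2 the rule took in more sites and 337 of 2049 neighbours fell (16.4%) and 97 rose, while leaving out fasted replicate 1 gave 24 that rose. With densities as deposited, not centred, 238 neighbours fell and 22 rose, and of all shared regions 3134 fell (8.68%) and 1929 rose (5.35%) in place of 2791 and 2978.

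Within 100 kb, the closer the neighbour, the more often it fell. Of the 175 neighbours under 1 kb away 54 fell (30.9%) and 1 rose, with a median log2 fold change of -0.25. At 1 to 5 kb 81 of 316 fell (25.6%) and 9 rose, again with a median of -0.25. At 5 to 20 kb 49 of 316 fell (15.5%) and 14 rose (median -0.13), and at 20 to 100 kb 28 of 239 fell (11.7%) and 8 rose (median -0.077). Beyond 100 kb 11 of 74 fell (14.9%) and 5 rose, and the median was 0.11. The median fed density of the neighbours also dropped over the classes within 100 kb, from 33.1 to 29.1, 24.4 and 20.6. Its part was not tested. A like trend held for neighbours of shared regions that themselves fell, of which 26.6%, 27.7%, 21.3% and 15.4% fell. For the fasted-only set 44.4%, 33.5%, 22.7% and 12.2% of neighbours rose in these classes.

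**Figure D4:**
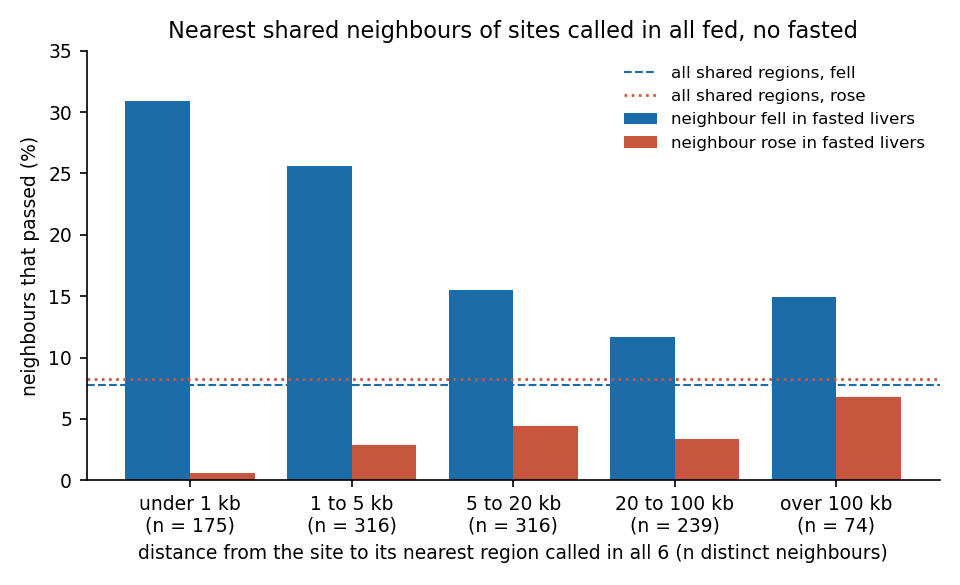
Percent of distinct nearest shared regions of fed-only sites that fell (blue bars) or rose (red bars) in fasted livers by limma, by distance from the site (number of neighbours under each class). The dashed and dotted lines give the 7.73% of all shared regions that fell and the 8.25% that rose. The blue bars go from 30.9% under 1 kb to 11.7% at 20 to 100 kb.

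Library by library, the 790 distinct neighbours within 20 kb had median densities of 29.6, 25.9 and 28.2 in fed replicates 1 to 3 and of 20.4, 17.4 and 22.1 in fasted replicates 1 to 3. For all shared regions the fed medians were 25.4, 24.0 and 23.8, and the fasted medians 23.3, 21.1 and 24.8. Among the neighbours every fed library thus lay above every fasted one, which was not so for all shared regions, where fasted replicate 3 stood above fed replicates 2 and 3. At the 179 of the 790 that fell, the medians were 38.6, 31.8 and 35.02 in fed and 13.9, 10.9 and 13.6 in fasted livers.

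The neighbours within 20 kb can be set beside those of shared regions that themselves fell. Of the 790 neighbours 179 fell (22.7%) and 24 rose (3.04%), with 86 falling by at least 1 on the log2 scale. For the 2120 fallen shared regions with another shared region within 20 kb, 492 of 2011 neighbours fell (24.5%) and 58 rose (2.88%). The fasted-only set was the mirror image in this count, with 14 of 628 such neighbours fallen (2.23%) and 198 risen (31.5%). None of these differences between sets was tested.

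Sites that kept some fasted calls had neighbours with values in between. For regions called in all fed and 1 fasted library, 147 of 898 neighbours within 20 kb fell (16.4%) and the median log2 fold change was -0.083. For those called in all fed and 2 fasted libraries it was 165 of 1329 (12.4%, median -0.041). For fed-only sites 22.7% fell with a median of -0.19, and for all shared regions 7.85% fell with a median of 0.055. The shares that rose were 4.9% and 4.74%, against 3.04% for fed-only sites and 9.13% for all shared regions. These differences were not tested. By the density of the site itself, from the weakest to the strongest of the 4 parts, 18.9%, 18.7%, 22.7% and 28.5% of neighbours within 20 kb fell.

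At 371 sites shared regions flanked the fed-only site on both sides within 20 kb. Most of these flanks had no call, as did most shared regions. Of all shared regions 16.0% passed, with 7.73% falling and 8.25% rising. The same count for pairs of flanks around other regions was not made. On 225 of the 371 sites (60.6%) neither flank passed the test, on 103 one flank fell and the other had no call, and on 25 (6.74%) both fell. Rises were rarer: 13 sites had one risen flank and one without a call, 3 had risen flanks on both sides and 2 had one fallen and one risen flank. A further 453 sites had a shared region within 20 kb on one side only, and 329 had none.

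The neighbour that fell most lay 211 bp from a fed-only site on chromosome 11 (16490281 to 16491115, densities 16.9, 9.37 and 7.55). This neighbour (16488684 to 16490069) gave 89.0, 65.2 and 76.2 in fed livers but 9.65, 5.33 and 4.54 in fasted livers, which is -3.34 on the log2 scale (SE 0.23, limma adjusted p = 9.3e-09). The groups did not overlap, but the neighbour was picked as the largest fall, so this largely follows from the choice. The small site beside it lost its call where the large one lost most of its height.

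At all 8 of the largest falls the fed-only site was weaker in fed livers than its neighbour, but the distances ranged from 185 bp to 15.7 kb. On chromosome 6 the site (24150909 to 24151483) had a mean of 6.94, and its neighbour 5.85 kb away went from 74.6 ± 9.81 to 8.67 ± 3.82 (log2 fold change -2.95). On chromosome 9 the site (79642809 to 79643595, mean 12.6) lay 185 bp from a region that went from 59.4 ± 3.26 to 9.76 ± 2.27 (-2.43). On chromosome 5 the site was stronger (33809318 to 33810311, mean 27.4 ± 2.24), and the region 456 bp away fell from 56.3 ± 6.93 to 7.24 ± 2.34 (-2.76). The other 4 were on chromosomes 1, 14, 8 and 10, at 12.99, 15.7, 1.58 and 1.94 kb, where the log2 changes were -2.60, -2.50, -2.47 and -2.36. At all 8 every fed library stood above every fasted one. These neighbours were picked as the largest falls, so this largely follows from the choice and is no separate result.

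Few neighbours rose, and the largest rises were smaller than the largest falls. On chromosome 11 a region 19.9 kb from a fed-only site (20065459 to 20066057, mean 11.6) rose from 21.1 ± 4.22 to 44.5 ± 12.5, or by 1.10 on the log2 scale (adjusted p = 0.00053, limma). Near the 3581 bp site on chromosome 8 the neighbour rose from 22.9 ± 1.49 to 46.5 ± 5.93 (1.06). The remaining 2 were on chromosome 13 (29729522 to 29730888, 0.99) and chromosome 15 (90879030 to 90881292, 0.97). The chromosome 13 region had fasted densities of 11.6, 22.5 and 10.9, so fasted replicate 2 stood above the others, and its call was lost without that library (0.61, limma adjusted p = 0.11) and without fed replicate 3 (0.81, adjusted p = 0.097), and its adjusted p was 0.05 with average density.

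**Figure D5:**
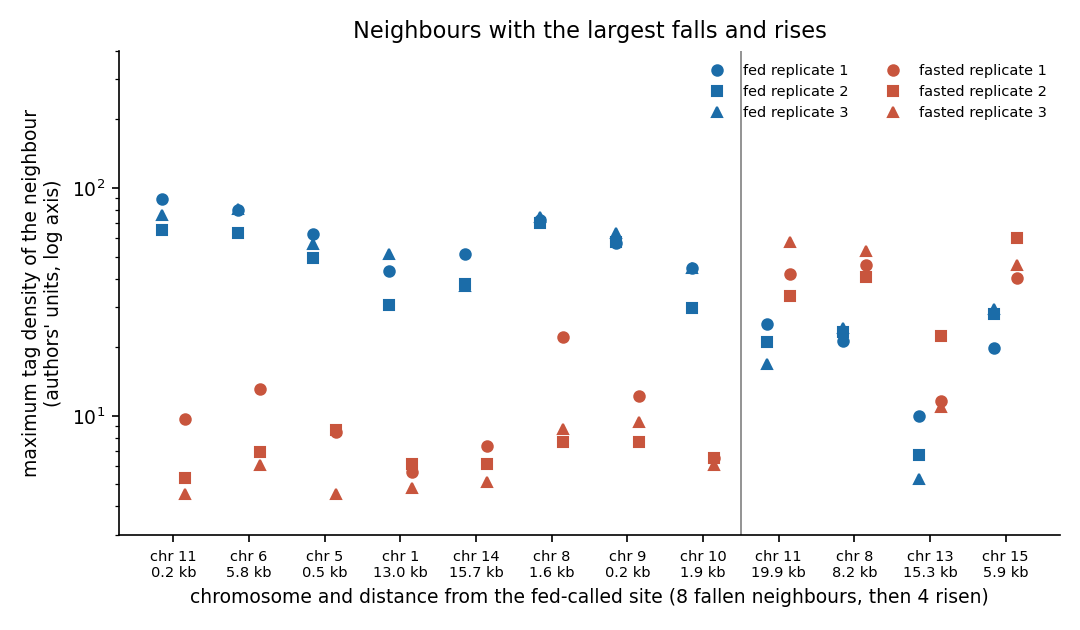
Maximum tag density (authors' units, log axis) of the 12 named neighbours in each fed (blue) and fasted (red) library; the axis gives the chromosome and the distance from the fed-only site. At the first 8 the fasted libraries lie below all fed ones, and at the last 4 above them. The neighbours were picked for these falls and rises.

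The strongest fed-only sites did not all sit beside falling regions. Beside the chromosome 9 site the neighbour, 607 bp away, went from 174.3, 167.1 and 214.9 to 78.6, 49.9 and 76.0 (log2 fold change -1.37, adjusted p = 1.8e-06, limma). Beside the widest site the neighbour on chromosome 12 went from 120.1 ± 18.6 to 35.98 ± 4.45 (-1.63, adjusted p = 3.4e-07). In contrast, the region 1.56 kb from the first chromosome 7 site had 187.6, 144.3 and 154.7 in fed and 187.2, 152.3 and 194.3 in fasted livers (0.21, adjusted p = 0.24). The regions nearest to the sites on chromosome 1 (0.13) and chromosome 7 at 26195730 (-0.049) did not pass either.

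Of the 12 strongest sites 6 had a neighbour that fell and 6 one that did not pass. By comparison, 7.73% of all shared regions fell. Of neighbours within 20 kb of the strongest of the 4 parts of the sites, 28.5% fell. Several of the fallen neighbours lay in the same stretch of chromosome 12, so they are not separate cases. The call was lost at 3 of the fallen ones on leaving out some libraries, and at 2 of these under other settings too. On chromosome 6 at 121115861 (log2 fold change -0.57, adjusted p = 0.0496) the limma adjusted p was 0.12, 0.15, 0.06 and 0.19 without fed replicates 1, 2 and 3 and fasted replicate 2. It was 0.068 with average density, 0.051 with a pseudocount of 0.1, 0.11 without the trend and 0.06 with the replicate block (limma). On chromosome 12 at 105226850 (-0.47) it was 0.066, 0.075, 0.12 and 0.057 without fed replicates 2 and 3 and fasted replicates 1 and 3, 0.13 with average density (-0.32) and 0.09 without the trend. On chromosome 12 at 105240694 (-0.64) it was 0.086, 0.065, 0.06 and 0.078 without fed replicates 2 and 3 and fasted replicates 1 and 2.

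The chromosome 12 stretch held 3 of the 12 strongest sites within 97.7 kb. Over 105215125 to 105347217 there were 18 union regions, of which 8 were shared, 3 fed-only and 2 fasted-only. Of the shared ones 5 fell and none rose, with log2 fold changes from -1.81 to 0.039. Of all shared regions 7.73% fell, and the stretch was chosen after its values were seen. The calls at 105226850 and 105240694 were lost in some refits. The region with almost no change (105278909 to 105281517) had 144.9, 135.3 and 127.9 in fed and 142.7, 93.9 and 171.9 in fasted livers. The one with the largest fall (105307645 to 105308504) had 47.1, 43.5 and 61.6 against 12.2, 12.4 and 13.9. The fasted-only site at 105215125 to 105215824 reached 20.7, 14.4 and 15.7 in the fasted libraries. Losses, a steady region and a gain of a call thus lay side by side in this stretch.

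On chromosome 8 a similar mixture surrounded 2 fed-only sites that spanned 46.6 kb. Between 116613477 and 116684057 there were 9 shared regions, of which 5 fell and 1 rose. Of all shared regions 7.73% fell and 8.25% rose, and this stretch too was chosen after its values were seen. The largest fall (116631005 to 116631912, from 72.4 ± 2.27 to 12.9 ± 8.04) lay 1.58 kb from the fed-only site at 116633491. The rise (116667217 to 116668275) lay 8.24 kb from the wide fed-only site at 116676519, and 3.27 kb past that site was a fasted-only site with 9.93, 6.91 and 11.5. Shared regions at 116641017 and 116656419 had log2 fold changes of 0.0090 and -0.029.

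Shorter stretches, like the longer ones chosen after their values were seen, differed among themselves. On chromosome 10 the fed-only site at 94602197 (14.7, 7.49 and 7.55) was followed by 3 shared regions that all fell (-2.36, -2.07 and -2.20 on the log2 scale), while the one before it did not pass (0.14). On chromosome 9 a second, weaker fed-only site (74644766 to 74645268, with 11.8, 12.0 and 11.0) lay between the fallen neighbour of the strongest site and a further region that fell (74648528 to 74650086, -0.62). On chromosome 13, over 32.5 kb around a group of 3 fed-only sites, 1 of 3 shared regions fell, and the others had adjusted p = 0.11 and 0.17 (limma).

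Most fed-only sites had no other fed-only site close by. An equal number of other regions was not drawn for comparison, so these values do not say whether the sites cluster or keep apart. The nearest other fed-only site was a median of 421 kb away, and 1021 of the 1153 sites (88.6%) had none within 20 kb. The rest formed 58 pairs, 4 groups of 3 and 1 group of 4. The group of 4 was on chromosome 2 (181336782 to 181356434), with mean densities from 11.0 to 22.7, no other region between them and 3 shared regions within 20 kb, none past the threshold (median log2 fold change 0.11). The group of 3 on chromosome 2 (73808065 to 73821917) included the site with a mean of 62.8, beside sites of 8.64 and 12.2. No shared region lay within 20 kb of it.

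On chromosome 13 a group of 3 (44532675 to 44547550) enclosed a shared region that went from 25.4, 16.9 and 19.5 in fed to 3.97, 4.34 and 8.17 in fasted livers (log2 fold change -1.69, adjusted p = 3.8e-05, limma). The fed-only sites around it had means of 27.1, 17.2 and 11.0. The groups on chromosome 3 (94507960 to 94522749) and chromosome 18 (45632148 to 45642263) had means of 12.1 to 20.01 and 8.83 to 15.7. The 4 shared regions within 20 kb of the chromosome 3 group included 1 that fell, and the chromosome 18 group had none.

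Few fed-only sites had a fasted-only site near them, but the fasted-only set held only 852 regions. The same distance from other regions is not given here, so these values do not say whether the sets keep apart. The nearest fasted-only site was a median of 889 kb away, 26 fed-only sites (2.25%) had one within 20 kb and 5 within 5 kb. Apart from the wide sites on chromosomes 12 and 8, these 5 were on chromosome 5 (30912504 to 30913286, fed mean 22.3, with a fasted-only site of mean 9.51 at 3.18 kb), chromosome 14 (31379508 to 31380058, 10.01 and 7.66 at 3.29 kb) and chromosome 6 (71106664 to 71107290, 13.9 and 15.5 at 4.84 kb).

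Every autosome held fed-only sites, from 40 on chromosomes 12 and 14 to 93 on chromosome 3. As a share of the regions called in all fed libraries they made up 2.05% on chromosome 4 and 4.17% on chromosome 3, with 2.09% on chromosome 10 and 3.65% on chromosome 13 next to these extremes. Fasted-only sites made up 1.21% (chromosome 18) to 2.62% (chromosome 12) of the regions called in all fasted libraries. The fed-only share was the higher one on 18 of the 19 chromosomes, chromosome 12 being the exception. All chromosomes were measured in the same 6 libraries, so they are not separate comparisons.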

How the data were processed

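DNase I hypersensitive sites were measured by sequencing in 3 libraries of fed and 3 of fasted mouse liver. Per the labels' protocols, nuclei of fresh liver were digested with DNase I and fragments were size-selected on sucrose gradients. The submitters' processing notes name CASAVA 1.8 and build mm9. The names of aligner and caller were not given in the sources used here. There is 1 deposited hotspot list per library. Per the file headers, each hotspot carries a maximum and an average tag density, a coverage signal that the authors deposited on an unstated scale. The authors also deposited a z-score per hotspot, a score of enrichment whose calculation is not stated. Their deposited p-value per hotspot entered no analysis.

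Hotspots of chromosomes 1 to 19 that overlapped by at least 1 bp were merged into union regions. Where several hotspots of a library fell into 1 region, the highest maximum density was taken. For the shared regions, fasted minus fed was tested in limma 3.58.1 under R 4.3.3 (moderated with a trend) on log2(density + 1) after subtracting each library's median, with Benjamini-Hochberg adjustment over 36088 regions and a threshold of 0.05. Plots were drawn in matplotlib 3.10.9 with pandas 2.3.3 on Python 3.11.15. On simulated data for fasted against fed over 36088 regions, with 200 changed, the fit recovered 90% of rises and 74% of falls by 1 on the log2 scale, 4% of rises and 10% of falls by 0.5, and called 8 unchanged regions. The real fit called 5769 regions, which makes the adjusted threshold easier to pass. The shares recovered in the simulation need therefore not hold for it.

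Named regions followed a rule: the 12 strongest and 4 widest members, the 8 members within 20 kb of the neighbours that fell most and the 4 near those that rose most, the 5 largest groups of at least 3 members with gaps of at most 20 kb, the 3 weakest and the 3 most isolated members, and 3 regions of each kind just outside the rule. The members and lists were chosen with earlier results of these data known. The stretches on chromosomes 8, 9, 10, 12 and 13 and the pairs with sites of the fasted set were chosen after their values were seen. Alternatives were merging within 150 bp, hotspots covering at least 50% of a region, the upper 75% of each list, lists of equal length, chromosome X added, average density, pseudocounts of 0.1 and 10, no centring, quantile normalization, the upper 50% of shared regions, no trend, the replicate number as a block, and leaving out each replicate. Gene names, gene lists and motifs were planned and not analysed here, since the reference tables are on another build. Chromosomes X and Y were left out of the members.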

Additional observations from a re-analysis of the deposited data

Results flagged for a closer look

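Chromosome X was outside the rule and held sites of the same kind. On it, 30 regions had a hotspot in every fed and in no fasted library, 2.78% of its 1080 regions called in all fed libraries, at a median density of 6.25 and a median width of 700 bp. Its fasted-only regions numbered 27. They were added in 1 alternative only, which gave 1183 sites, with 221 of 1114 neighbours fallen (19.8%).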

How the results depend on the processing

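The number of fed-only sites ranged from 1287 to 2340 on leaving out each replicate, their median density from 8.31 to 10.9, width from 609 to 703 bp and distance from 6.72 to 8.21 kb. Neighbours that fell then numbered 182 to 337 and those that rose 24 to 97 (median log2 fold change -0.17 to -0.11), and shared regions that rose 1940 to 3182 (lowest without fasted replicate 1). The distance was 7.49 kb with hotspots within 150 bp merged, 8.94 kb with hotspots covering 50% of a region, 8.96 kb in the upper 75% of each list (where density was 15.1, width 816 bp and 22 neighbours rose), 7.83 kb with lists of equal length and 7.11 kb with chromosome X. Average density gave a median of 4.56 and a neighbour median of -0.12, a pseudocount of 10 gave -0.093. No centring gave 1929 risen shared regions, 22 risen neighbours and -0.23. The upper 50% of shared regions, with fewer tested, gave 1402 risen and 1495 fallen ones. Neighbours were then sought among this upper 50% alone, and 160 of 1054 fell (15.2%), with a median of -0.054. The cause was not tested elsewhere. The replicate block gave 192 fallen and 27 risen neighbours. The deviations of libraries with the same number correlated at -0.069, -0.029 and -0.17, and those with different numbers at -0.067 to 0.14. With 3 libraries per group these values cannot decide whether the numbers pair libraries. Of 671 refitted values of 38 named neighbours, picked on the same data, 0 reversed, 21 lost and 6 gained a call. A further 51 neighbour values and 31 member values could not be had, because the region left its class. All 8 neighbours with the largest falls were among these under at least 1 alternative, and 5 of their 8 fed-only sites left the set in the upper 75% of each list. In simulated data 4% of rises and 10% of falls by 0.5 were found. Far fewer regions were changed there than the real fit called, so these shares need not hold for it.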
